A study of Mus musculus with 19 samples.

Results

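The 9 genes described here are names by which marginal zone and follicular B cells of the mouse spleen are told apart, and they are 9 of the 27179 genes for which expression values were deposited. Cr2, Cd1d1, Cd9, Dtx1, Notch2, S1pr3 and Fcrl5 were taken as the 7 marginal zone genes, and Fcer2a and Klf2 as the 2 follicular genes. They were taken by name for these roles, and all 9 passed the filter on low values that left 14186 genes for testing.

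Mature B cells of the spleen fall mainly into follicular B cells, which recirculate through the follicles, and marginal zone B cells, which stay at the rim of the white pulp beside the blood sinus and answer blood-borne bacteria with fast IgM. An immature B cell takes the marginal zone path when its NOTCH2 receptor meets the ligand DLL1 on stromal cells, which frees the intracellular part of NOTCH2 to bind the DNA-binding protein RBPJ and switch on target genes such as Dtx1. Marginal zone B cells carry much complement receptor and CD1d and are held in place partly by receptors for the lipid sphingosine 1-phosphate (S1P), whereas follicular B cells carry the IgE receptor CD23 and express the transcription factor KLF2, which restrains the marginal zone path.

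The mice were animals of the 4 Core Genotypes (FCG) model on a C57BL/6J background, in which the testis-determining gene Sry is missing from the Y chromosome and present as a transgene on an autosome in the males, so that gonads and sex chromosomes are inherited separately. XXF and XYF mice had ovaries and lacked the transgene, and XXM and XYM mice had testes and carried it. All 19 mice had been injected with heat-killed Streptococcus pneumoniae (HKSP) and were sampled 1 week later, and the sources used here do not state their age. RNA of whole splenocyte suspensions, after lysis of red cells, was sequenced as 1 library per mouse from 5 XXF, 4 XYF, 5 XXM and 5 XYM mice. The males carry the Sry transgene as well as testes, and the libraries of a group stand together in the numbering of the titles, with a further tag in the XXM titles, so that neither the transgene nor a run order within that numbering can be told apart from the groups. Library sizes, recovered from the steps between the deposited values, lay between 11263753 and 19962022 reads.

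Each of the 9 genes had reads in every mouse, from at least 97 reads for S1pr3 to as many as 18839 for Cr2. Averaged over the 19 mice, the level per length of transcript, in RPKM (reads scaled to transcript length and library size), was 246.3 for Klf2, 158.7 for Fcer2a, 127.3 for Cr2, 82.4 for Cd9, 52.6 for Dtx1, 29.2 for Notch2, 28.6 for Cd1d1, 14.6 for Fcrl5 and 5.30 for S1pr3. The 10 pan-B genes were all expressed, with Cd79b the most abundant at 865 RPKM, but T cell, NK cell, myeloid, neutrophil and erythroid genes were expressed too, as in any unsorted spleen. Klf2, Cd9, Cd1d1 and Notch2 are known to be transcribed in other spleen cells, and Cr2 in follicular dendritic cells. In such bulk RNA, fewer cells of a type and less RNA per cell cannot be told apart.

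Promoter sequence is shown for genes on which the results turn, because Notch signalling acts through RBPJ, whose binding sites hold the letters TGGGAA, read on the other strand as the letters TTCCCA. RefSeq promoters (build GRCm38.p6) were found for 8 of the 9 genes as 10 entries. In the 250 bases before each start, the letters were present on either strand in 21.6% of all 32851 promoters and in 4 of these 10, those of Cr2 and Cd9 and both inner starts of Fcer2a. They were not found in this window for Dtx1, Notch2, S1pr3, Fcrl5, Klf2 or the outermost start of Fcer2a. The 89 bases of the Cr2 promoter that lie outside the annotated gene (chr1:195176881-195176969, minus strand) hold the letters in forward direction, beginning 220 bases before the start used here, and 8.44% of all promoters hold them in the same stretch. The other lines give the 250 bases before the start of S1pr3 (chr13:51408368-51408617, plus strand), before the outermost start of Fcer2a (chr8:3694175-3694424, minus strand) and before an inner start of Fcer2a (chr8:3690862-3691111, minus strand), each 5′ to 3′ with the letters in capitals. The matches of the inner Fcer2a start are both in reverse direction, begin 248 and 168 bases before that start and do not overlap. A match is given as letters only, and binding was not measured.
Cr2: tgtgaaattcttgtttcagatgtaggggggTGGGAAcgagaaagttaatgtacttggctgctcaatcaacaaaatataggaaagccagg
S1pr3: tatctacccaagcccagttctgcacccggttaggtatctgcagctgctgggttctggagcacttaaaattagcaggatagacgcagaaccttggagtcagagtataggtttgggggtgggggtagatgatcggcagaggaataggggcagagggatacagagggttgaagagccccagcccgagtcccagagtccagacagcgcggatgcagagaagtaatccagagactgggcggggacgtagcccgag
Fcer2a, outermost start: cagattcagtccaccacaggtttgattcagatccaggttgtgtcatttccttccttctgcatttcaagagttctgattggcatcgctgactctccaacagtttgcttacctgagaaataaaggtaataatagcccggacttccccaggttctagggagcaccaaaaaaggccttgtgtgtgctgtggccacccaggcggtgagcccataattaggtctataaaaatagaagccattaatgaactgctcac
Fcer2a, inner start: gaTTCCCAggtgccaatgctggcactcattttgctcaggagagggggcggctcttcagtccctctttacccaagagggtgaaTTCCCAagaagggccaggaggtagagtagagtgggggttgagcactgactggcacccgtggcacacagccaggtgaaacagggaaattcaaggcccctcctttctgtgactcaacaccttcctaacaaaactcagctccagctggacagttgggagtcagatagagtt

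Expression is given on the scale of the deposited values, log2(RPKM + 1), on which a difference understates the change of a gene with low RPKM, S1pr3 above all. Each gene was tested with limma over all 14186 genes, and to be called it needed both a p adjusted by Benjamini-Hochberg below 0.1 and a difference over the log2 of 1.5 in size. The comparisons were XXF vs XYF, XXM vs XYM, XX vs XY averaged over both gonadal sexes, males vs females with XX and XY weighted equally, and the interaction, which is the XX vs XY difference in females minus that in males. XX vs XY shares its mice with both comparisons it averages, and so does the interaction.

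Cr2, Cd1d1, Dtx1 and S1pr3 were higher in XX than in XY mice, by 1.45 to 1.86 times in mean RPKM averaged over both gonadal sexes, whereas Cd9, Notch2, Fcrl5, Fcer2a and Klf2 were not called in that comparison. In females, 4 of the 9 genes were called in XXF vs XYF mice, all of them higher in XXF, where 1.38% of all genes tested were called in either direction (196 genes, and 56 to 850 without each mouse in turn). In males none of the 9 was called in XXM vs XYM mice, where 2.96% of all genes were (420 genes, and 51 to 1213 without each mouse in turn). Still, 3 of the 9 (Cd1d1, Dtx1 and S1pr3) passed the adjusted p without the fold change threshold, where 7.86% of all genes did. That count of 3 fell to 0 without XXM 2, 5 or 6 or XYM 13. It fell to 1 without XYM 12 or 16 or with these groups fitted alone. It rose to 5 without XXM 7 or XYM 15 and to 7 with array weights. Without the fold change threshold, 4 of the 9 passed in XXF vs XYF mice, beside 2.43% of all genes. At an unadjusted p under 0.05 there were 5 of 9 in XXM vs XYM mice, beside 27.1% of all genes, and limma-voom on the recovered reads called 2, Cd1d1 and S1pr3, beside 399 of all 14186. Averaged over both gonadal sexes, 4 of 9 were called in XX vs XY, beside 1.72% of all genes (244 genes, and 148 to 518 without each mouse in turn), and the same 4 passed the adjusted p alone, beside 6.93%. The median log2 difference of the 7 marginal zone genes was 0.60 in XXF vs XYF and 0.39 in XXM vs XYM mice, beside 0.06 and 0.01 over all genes tested.

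**Figure D1:**
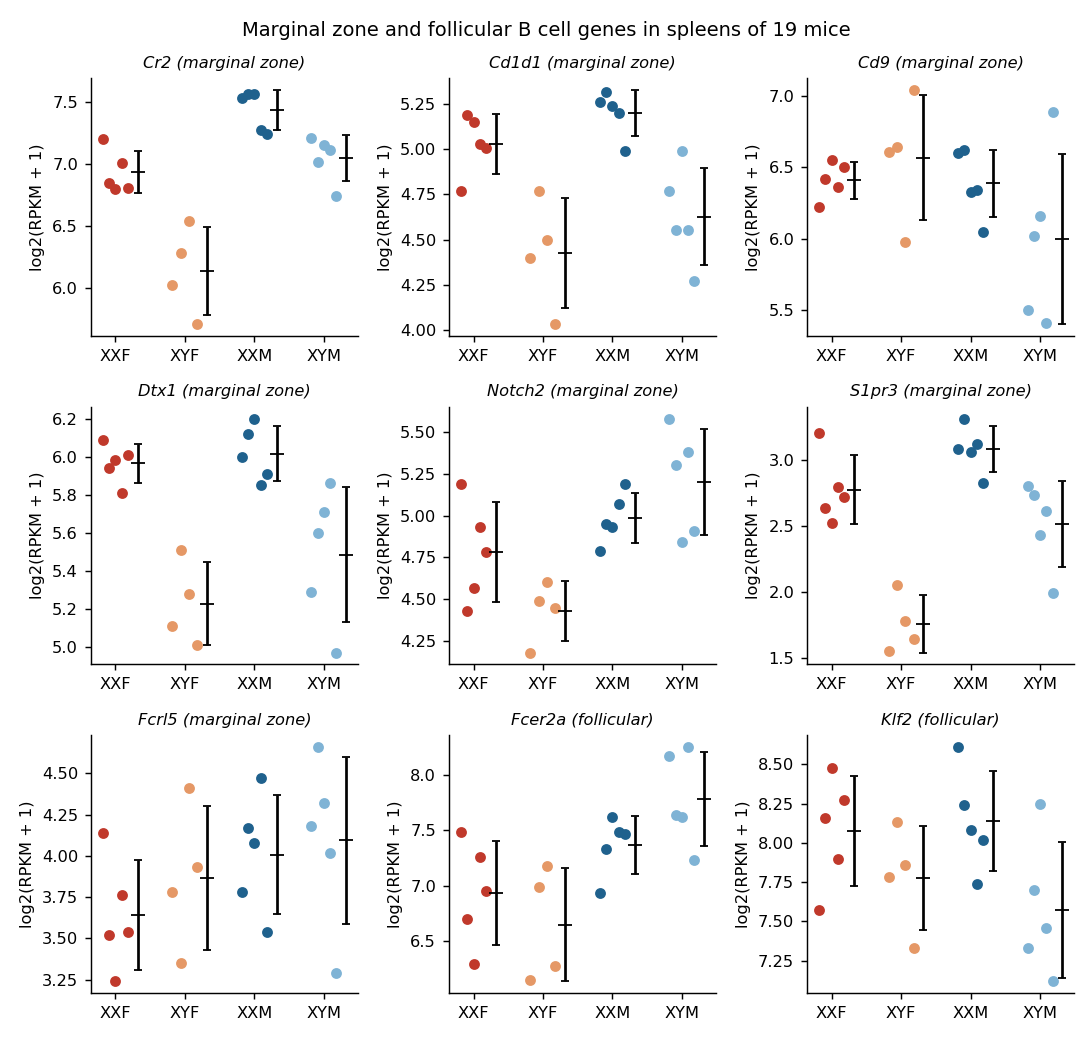
Expression of the 9 genes, log2(RPKM + 1), in each of 19 mice by group, 1 point per mouse, with the group mean and SD as a dash and bars to the right of the points. The vertical scale differs between panels and does not start at 0. Cr2 and S1pr3 of XXF mice lie above those of XYF mice without overlap, and the same holds for XXM above XYM mice.

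Cr2 (chr1:195136811-195176880 in RefSeq build GRCm38.p6) encodes complement receptors 1 and 2, which bind cleaved C3 on antigen and lower the threshold of the B cell receptor, and which a value per gene does not separate. Its log2 values were 7.20, 6.85, 6.80, 7.01 and 6.81 in the 5 XXF mice, 6.03, 6.28, 6.54 and 5.71 in the 4 XYF mice, 7.53, 7.56, 7.56, 7.27 and 7.24 in the 5 XXM mice and 7.21, 7.02, 7.15, 7.11 and 6.74 in the 5 XYM mice. Every XXF mouse was above every XYF mouse and every XXM mouse above every XYM mouse, and XXF and XYM mice overlapped. The order of the groups was XXM, XYM, XXF, XYF, with mean values of 7.43 ± 0.16, 7.05 ± 0.18, 6.93 ± 0.17 and 6.14 ± 0.36 (SD, n = 5, 5, 5 and 4), and the neighbours XYM and XXF did not differ beyond their spread. The log2 difference was 0.79 ± 0.15 (SE, adjusted p = 0.013) in XXF vs XYF mice and 0.39 ± 0.14 (adjusted p = 0.111) in XXM vs XYM mice. The difference in XXF vs XYF mice stayed called with each of the 19 mice left out in turn, but not when the 2 groups were fitted alone (adjusted p = 0.105). Over the alternatives tried, its adjusted p lay between 0.00536 and 0.105. Averaged over both gonadal sexes it was 0.59 ± 0.10 (adjusted p = 0.00331), just past the fold change threshold. It fell below that threshold, to between 0.52 and 0.58, without XXF F1 or F4, XYF F6 or F9, XXM 2, 5 or 6, or XYM 9, with adjusted p no higher than 0.0101, and to 0.55, 0.54 and 0.50 after median ratio rescaling, quantile normalization and array weights.

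S1pr3 (chr13:51408618-51422797) encodes an S1P receptor through which marginal zone B cells respond to the S1P of the blood. Its values were 3.20, 2.63, 2.52, 2.79 and 2.72 in the 5 XXF mice, 1.55, 2.05, 1.78 and 1.64 in the 4 XYF mice, 3.08, 3.31, 3.06, 3.12 and 2.82 in the 5 XXM mice and 2.80, 2.73, 2.43, 2.61 and 1.99 in the 5 XYM mice. Each XX group was above the XY group of the same gonadal sex without overlap, by a wide gap in females and by a narrow one in males, where XXM 8 and XYM 12 nearly met. In mean RPKM the level was 5.93 ± 1.33 in XXF (SD, n = 5), 2.40 ± 0.54 in XYF (n = 4), 7.48 ± 1.03 in XXM (n = 5) and 4.81 ± 1.20 in XYM mice (n = 5), and XXF and XYM mice overlapped. The log2 difference was 1.02 ± 0.17 (SE, adjusted p = 0.00525) in XXF vs XYF, 0.56 ± 0.16 (adjusted p = 0.0753) in XXM vs XYM and 0.79 ± 0.11 (adjusted p = 0.00088) in XX vs XY mice. The calls in XXF vs XYF and XX vs XY held without each mouse in turn. In XXM vs XYM mice the difference passed the fold change threshold and was called without XXM 8 (0.63, adjusted p = 0.0694). It was also called with a pseudocount of 0.1 (0.65) or 0.5 (0.61), after quantile normalization (0.63) and by limma-voom (0.67). Its adjusted p was under 0.1 in 13 of the 19 fits without a mouse, and lay between 0.0195 and 0.179 over the alternatives.

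Of the 9 genes, 3 (Cr2, Dtx1 and S1pr3) did not overlap between XXF and XYF mice, beside 5.65% of all genes tested, and 2 (Cr2 and S1pr3) did not overlap between XXM and XYM mice, beside 4.07%.

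Dtx1 (chr5:120680203-120711867) encodes Deltex1, an E3 ubiquitin ligase of the Notch pathway that is itself a Notch target in B cells. Its values were 6.09, 5.94, 5.98, 5.81 and 6.01 in the 5 XXF mice, 5.11, 5.51, 5.28 and 5.01 in the 4 XYF mice, 6.0, 6.12, 6.20, 5.85 and 5.91 in the 5 XXM mice and 5.29, 5.60, 5.71, 5.86 and 4.97 in the 5 XYM mice. The XXF mice were all above the XYF mice, while XYM 16 (5.86) was level with the lowest XXM mouse (5.85). XXM and XXF mice had near equal means, 6.01 ± 0.14 and 5.97 ± 0.10 (SD, n = 5 each), followed by XYM (5.48 ± 0.36, n = 5) and XYF mice (5.23 ± 0.22, n = 4), which overlapped. The log2 difference was 0.74 ± 0.15 (SE, adjusted p = 0.0222) in XXF vs XYF, 0.53 ± 0.14 (adjusted p = 0.0691) in XXM vs XYM and 0.64 ± 0.10 (adjusted p = 0.0019) in XX vs XY mice. The call in XXF vs XYF mice was lost without XYF F9 (0.67, adjusted p = 0.114), over alternatives between 0.00424 and 0.114. The call in XX vs XY mice was lost to the fold change threshold without XYM 9 (0.57, adjusted p = 0.00107) and with array weights (0.57). In XXM vs XYM mice the gene was called without XYM 15 (0.59, adjusted p = 0.0323) or XYM 16 (0.62, adjusted p = 0.066). Its adjusted p in that comparison was under 0.1 in only 14 of the 19 fits without a mouse, and lay between 0.00938 and 0.17 over the alternatives.

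Cd1d1 (chr3:86995834-87012358) encodes CD1d, which presents lipids to NKT cells. Its values were 4.77, 5.19, 5.15, 5.03 and 5.01 in the 5 XXF mice, 4.40, 4.77, 4.50 and 4.03 in the 4 XYF mice, 5.26, 5.32, 5.24, 5.20 and 4.99 in the 5 XXM mice and 4.77, 4.55, 4.99, 4.55 and 4.27 in the 5 XYM mice. All XXF mice but F1 were above the XYF mice, F1 met XYF F7 at 4.77, and XXM 8 met XYM 15 at 4.99. The order was XXM (5.20 ± 0.13), XXF (5.03 ± 0.16), XYM (4.63 ± 0.27) and XYF (4.43 ± 0.31; SD, n = 5, 5, 5 and 4), with overlap between each group and the next. The log2 difference was 0.60 ± 0.15 (SE, adjusted p = 0.0583) in XXF vs XYF, 0.58 ± 0.14 (adjusted p = 0.0568) in XXM vs XYM, just short of the fold change threshold, and 0.59 ± 0.10 (adjusted p = 0.00321) in XX vs XY mice. The call in XXF vs XYF mice was lost without XXF F2 (0.56), F3 (0.57), F4 (0.60), F5 (0.61), XYF F6 (0.59) or XYF F9 (0.47), with an adjusted p of 0.246 without the last and between 0.0174 and 0.246 over all alternatives. It was also lost after median ratio rescaling (0.53), quantile normalization (0.56) or array weights (0.53), with the 2 groups fitted alone (0.60, adjusted p = 0.159) and without both XYF F9 and XYM 9 (0.47). The difference in XX vs XY mice fell just below the fold change threshold, to between 0.52 and 0.58, without XXF F2 or F3, XYF F6 or F9, XXM 2, 5 or 6, or XYM 9, 13 or 16, with adjusted p no higher than 0.00843, and to 0.55, 0.56 and 0.56 after median ratio rescaling, quantile normalization and array weights. Conversely, Cd1d1 was called in XXM vs XYM mice without XXM 8 (0.63), XYM 12 (0.61) or XYM 15 (0.67). It was also called there with a pseudocount of 0.1 (0.59) or 0.5 (0.59), with array weights (0.59) and by limma-voom (0.60). Its adjusted p there was under 0.1 in only 14 of the 19 fits without a mouse, and lay between 0.00193 and 0.145 over the alternatives. Cd1d1 has a near copy, Cd1d2, with a mean of 1.33 RPKM, and the sources used here do not state the handling of reads with several matches. The same limit holds for Cr2, whose relative Cr1l had a mean of 43.0 RPKM (33.6 to 48.4 over the mice).

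The libraries XYF F9 and XYM 9 stood apart, with the highest summed neutrophil markers of all mice (43360 and 44110 RPKM, beside at most 14670 in any other mouse), and they had the lowest or second lowest values of their groups for Cr2, Cd1d1, Dtx1 and S1pr3. Without both of them, 3 of the 9 genes were called in XXF vs XYF (Cr2, Dtx1 and S1pr3), 1 in XXM vs XYM (Cd9), 1 in XX vs XY (S1pr3), 2 in males vs females (Cr2 and Fcer2a) and 0 in the interaction. Of all 14186 genes, 127, 876, 185, 1289 and 782 were called in that fit in the same order, beside 196, 420, 244, 1039 and 12 with all mice. The 4 genes still passed the adjusted p alone in XX vs XY mice, with log2 differences of 0.48 for Cr2, 0.48 for Cd1d1, 0.54 for Dtx1 and 0.71 for S1pr3.

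Notch2 (chr3:98013538-98150367) encodes the receptor that directs B cells to the marginal zone, and it did not follow the order of its target Dtx1. Its values were 5.19, 4.43, 4.57, 4.93 and 4.78 in the 5 XXF mice, 4.18, 4.49, 4.60 and 4.45 in the 4 XYF mice, 4.79, 4.95, 4.93, 5.07 and 5.19 in the 5 XXM mice and 5.58, 5.30, 4.84, 5.38 and 4.91 in the 5 XYM mice. XYF mice were lowest, XYM mice highest on average, and all neighbouring groups overlapped. The log2 difference was 0.35 ± 0.16 (SE, adjusted p = 0.26) in XXF vs XYF and -0.22 ± 0.15 (adjusted p = 0.356) in XXM vs XYM mice. In males vs females it was 0.49 ± 0.11 (adjusted p = 0.00465), which missed the fold change threshold. Dtx1 minus Notch2, per mouse, was on average 1.19 ± 0.29 in XXF, 0.79 ± 0.22 in XYF, 1.03 ± 0.26 in XXM and 0.28 ± 0.44 in XYM mice (SD, n = 5, 4, 5 and 5, no test).

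Cd9 (chr6:125460266-125494760) encodes a tetraspanin of the cell membrane, abundant on marginal zone B cells and also on platelets and myeloid cells. Its values were 6.22, 6.42, 6.55, 6.36 and 6.50 in the 5 XXF mice, 6.61, 6.64, 5.98 and 7.04 in the 4 XYF mice, 6.60, 6.62, 6.33, 6.34 and 6.05 in the 5 XXM mice and 5.50, 6.02, 6.16, 5.41 and 6.89 in the 5 XYM mice. The highest values were those of XYF F9 and XYM 9, and the groups overlapped widely. No comparison called it, with log2 differences of -0.16 ± 0.24 (SE) in XXF vs XYF, 0.39 ± 0.23 in XXM vs XYM and -0.30 ± 0.17 in males vs females. Without XYM 9 it was called in XXM vs XYM mice (0.61, adjusted p = 0.0754).

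Fcrl5 (chr3:87435777-87500678) encodes an Fc receptor-like protein with inhibitory motifs that in mouse marks marginal zone and B1 cells. Its lowest value was 3.24, in XXF F3, and its highest 4.66, in XYM 13. All groups overlapped, and the log2 difference was -0.23 ± 0.26 (SE) in XXF vs XYF, -0.09 ± 0.24 in XXM vs XYM and 0.30 ± 0.18 in males vs females, none of them called. The 7 marginal zone genes thus did not move as 1 block between XX and XY mice: 4 were called and Cd9, Notch2 and Fcrl5 were not, with XX vs XY log2 differences of 0.12, 0.07 and -0.16.

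**Figure D2:**
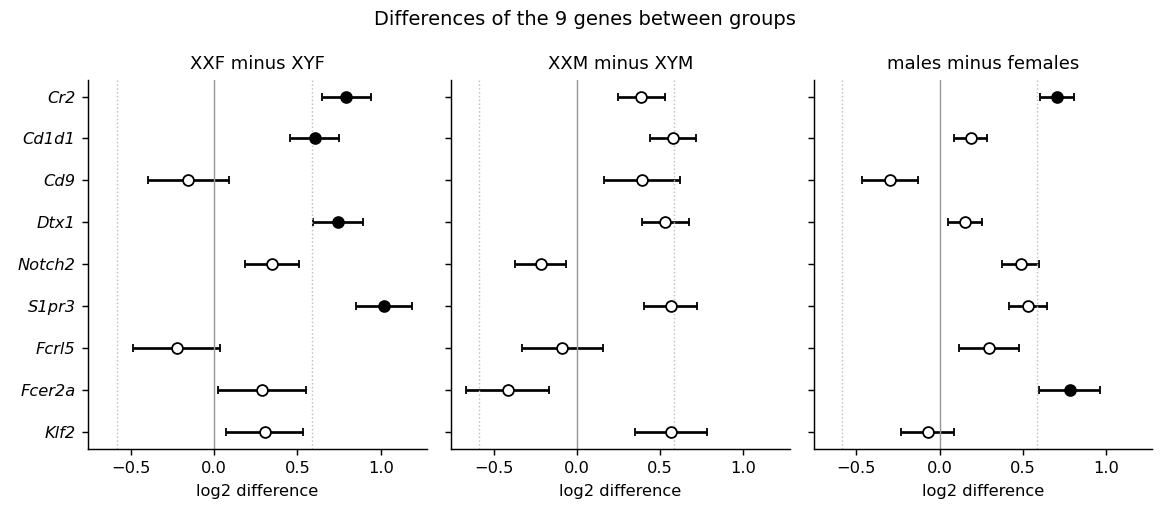
Log2 difference of each gene, in log2(RPKM + 1), in XXF minus XYF, XXM minus XYM and males minus females, with bars of 1 SE. Filled points were called at adjusted p under 0.1 past the dotted lines, the log2 of 1.5 in size. Cr2, Cd1d1, Dtx1 and S1pr3 are filled in females, and Cr2 and Fcer2a in males minus females.

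The follicular genes behaved differently from each other. Fcer2a (chr8:3680280-3694174) encodes CD23, the low-affinity IgE receptor. Its values were 7.48, 6.70, 6.29, 7.26 and 6.95 in the 5 XXF mice, 6.15, 6.99, 7.18 and 6.28 in the 4 XYF mice, 6.93, 7.33, 7.62, 7.48 and 7.47 in the 5 XXM mice and 8.17, 7.64, 7.62, 8.25 and 7.23 in the 5 XYM mice. Males lay higher than females on average, with XYM mice highest, and within each gonadal sex XX and XY mice overlapped. The order was XYM (7.78 ± 0.43), XXM (7.37 ± 0.26), XXF (6.94 ± 0.47) and XYF (6.65 ± 0.51; SD, n = 5, 5, 5 and 4), each overlapping the next. The log2 difference in males vs females was 0.78 ± 0.18 (SE, adjusted p = 0.00497), called without each mouse in turn. In XXF vs XYF it was 0.29 ± 0.26 (adjusted p = 0.558) and in XXM vs XYM -0.42 ± 0.25 (adjusted p = 0.277).

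Klf2 (chr8:72319062-72321654) encodes a transcription factor that controls the trafficking of lymphocytes. Its values were 7.57, 8.16, 8.48, 7.90 and 8.27 in the 5 XXF mice, 7.78, 8.13, 7.86 and 7.33 in the 4 XYF mice, 8.61, 8.24, 8.08, 7.74 and 8.02 in the 5 XXM mice and 7.33, 7.70, 8.25, 7.46 and 7.12 in the 5 XYM mice. XXM and XXF mice were highest on average and XYM mice lowest, with 1 XYM mouse (15) as high as the XXM mice. The log2 difference was 0.30 ± 0.23 (SE, adjusted p = 0.48) in XXF vs XYF, 0.56 ± 0.22 (adjusted p = 0.126) in XXM vs XYM and -0.07 ± 0.16 (adjusted p = 0.761) in males vs females. In XX vs XY mice it was 0.43 ± 0.16 (adjusted p = 0.128), in the direction of the 4 called marginal zone genes, and its adjusted p was under 0.1 in 3 of the 19 fits without a mouse. It was called in XXM vs XYM mice without XXM 7 (0.66, adjusted p = 0.0965) or XYM 15 (0.73, adjusted p = 0.0373).

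Between males and females, 2 of the 9 genes were called, both higher in males, where 7.32% of all genes were called in either direction. Cr2 had a log2 difference of 0.70 ± 0.10 (SE, adjusted p = 0.000145) and Fcer2a that of 0.78 given above. S1pr3 (0.53 ± 0.11, adjusted p = 0.00324) and Notch2 passed the adjusted p but not the fold change threshold, so that 4 of 9 passed the adjusted p alone, beside 38.5% of all genes. S1pr3 was called without XYM 9 (0.60, adjusted p = 0.000469), with array weights (0.60), with a pseudocount of 0.1 (0.65) or 0.5 (0.59) and by limma-voom (0.65). Cd1d1 (0.19 ± 0.10) and Dtx1 (0.15 ± 0.10) were not called.

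In the interaction, which asks whether XX and XY mice differ by unequal amounts in females and males, 0 of the 9 genes were called, beside 0.0846% of all genes, and 1 of 9 (Notch2) had an unadjusted p under 0.05, beside 21.0%. limma-voom called 0 as well. The interaction was 0.57 ± 0.22 (SE, adjusted p = 0.172) for Notch2, 0.70 ± 0.36 (adjusted p = 0.268) for Fcer2a, 0.46 ± 0.23 (adjusted p = 0.259) for S1pr3 and 0.40 ± 0.20 (adjusted p = 0.255) for Cr2. The calls in XXF vs XYF and their absence in XXM vs XYM mice are therefore not shown to differ between the gonadal sexes. Without XYM 9, Notch2 (0.64, adjusted p = 0.0834), S1pr3 (0.59, adjusted p = 0.0799) and Cd9 (-0.77, adjusted p = 0.0843) were called, but so were 1694 of the 14186 genes tested, beside 12 with all mice.

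As a description with no test, the mean log2 value of the 7 marginal zone genes minus that of the 2 follicular genes was -2.27, -2.43, -2.41, -2.48 and -2.56 in XXF mice and -2.44, -2.83, -2.79 and -2.26 in XYF mice. It was -2.48, -2.35, -2.50, -2.28 and -2.64 in XXM mice and -2.70, -2.55, -2.85, -2.87 and -2.45 in XYM mice. The XX mean was the higher of each pair, by 0.15 in females (0.07 without XYF F7, 0.26 without XYF F9) and 0.23 in males, and the groups overlapped, with XYF F9 (-2.26) the highest of all mice. Single pairs depended on the follicular gene. Cr2 minus Fcer2a was higher on average by 0.51 in XXF than XYF mice and by 0.80 in XXM than XYM mice, and S1pr3 minus Fcer2a by 0.73 and 0.98. With Klf2 in place of Fcer2a, the differences were 0.49 and -0.18 for Cr2 and 0.71 and 0 for S1pr3, so that in males the direction did not hold, and the groups overlapped in both sexes.

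The level of B cell genes as a whole moved with some of these results. Of the 10 pan-B genes, 8 were called higher in males vs females, beside 7.32% of all genes in either direction. In XXF vs XYF and XXM vs XYM mice 1 of 10 was called higher, beside 1.38% and 2.96% of all genes. In XX vs XY mice limma called 0 of 10 and limma-voom 0, but 5 passed the adjusted p alone (6.93% of all genes) and 8 had an unadjusted p under 0.05 (22.8%), with a median difference of 0.38. In XXF vs XYF mice 8 had an unadjusted p under 0.05 (18.7%). The summed RPKM of the list was 3178, 3069, 2685, 3009 and 2973 in the XXF mice, 1692, 2755, 2844 and 1438 in the XYF mice, 4308, 4682, 4159, 4254 and 3903 in the XXM mice and 3936, 3293, 4100.0, 3721 and 2426 in the XYM mice. XYF F6 and F9 and XYM 9 were far below the other mice of their groups, and no pan-B gene was at 0. The mean log2 value of the list was higher by 0.47 in XXF than in XYF mice, by 0.23 in XXM than in XYM mice and by 0.66 in males than in females. Relative to that mean, per mouse, Cr2 differed by 0.32 between XXF and XYF mice, 0.15 between XXM and XYM mice and 0.04 between males and females, and Fcer2a by -0.18, -0.65 and 0.12. S1pr3 relative to the pan-B mean differed by 0.55 in XXF vs XYF and 0.33 in XXM vs XYM mice, Dtx1 by 0.27 and 0.30, and Cd1d1 by 0.13 and 0.34. The other marginal zone genes were mostly lower in XX mice on this measure, with differences of -0.70 and -0.32 for Fcrl5, -0.12 and -0.45 for Notch2 and -0.63 and 0.16 for Cd9, and Klf2 differed by -0.17 and 0.33. Between males and females the differences on this measure were -0.13 for S1pr3, -0.51 for Dtx1 and -0.48 for Cd1d1. They were -0.37 for Fcrl5, -0.18 for Notch2, -0.96 for Cd9 and -0.73 for Klf2. These values carry no test, and the part of the pan-B level in the calls was not tested beyond them.

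**Figure D3:**
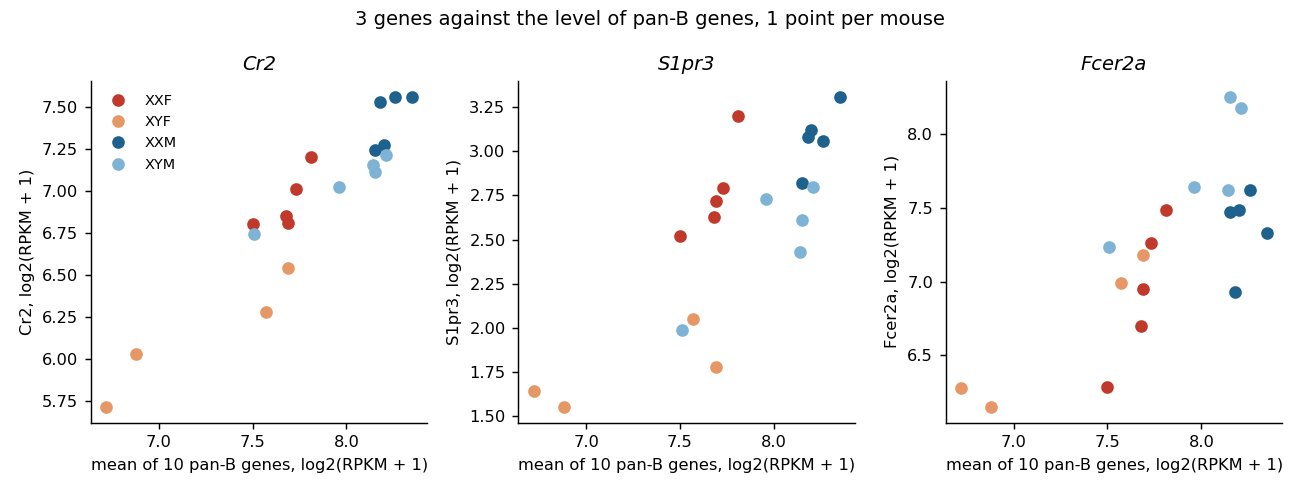
Cr2, S1pr3 and Fcer2a against the mean of the 10 pan-B genes, both in log2(RPKM + 1), 1 point per mouse, coloured by group. XXF mice lie above the XYF mice of similar pan-B level for S1pr3, and the 2 highest values of Fcer2a are those of XYM mice.

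Markers of other cells also moved. Beside the counts that follow, 1.38% of all genes were called in XXF vs XYF, 1.72% in XX vs XY and 2.96% in XXM vs XYM mice. Of the 5 NK cell genes, all were called in XXF vs XYF and in XX vs XY mice and 3 in XXM vs XYM mice, each time higher in XX, with Gzma the most abundant (201 RPKM) and none at 0. Their summed RPKM was 392.1, 434, 422, 532 and 492 in the XXF mice, 145, 242, 159 and 80.4 in the XYF mice, 385, 316, 359.6, 354 and 321 in the XXM mice and 182, 185, 277, 144 and 60.1 in the XYM mice. Each XX group was above the XY group of the same gonadal sex without overlap. Of the 3 marginal zone macrophage genes, Marco, a scavenger receptor and the most abundant of them (12.2 RPKM), was called higher in XX vs XY mice (1.02 ± 0.20, SE, adjusted p = 0.00864), and Siglec1 and Cd209b were not, with none at 0 in all mice. That call held without each mouse in turn, and Marco was named after its values were seen. It was also called in XXF vs XYF (1.04, adjusted p = 0.0936) and in XXM vs XYM mice (1.01, adjusted p = 0.0719). Its adjusted p there was under 0.1 in 6 and 14 of the 19 fits without a mouse. The call in XXF vs XYF mice was also lost by limma-voom (1.12, adjusted p = 0.109). The same held without the filter on low values, after median ratio rescaling or quantile normalization, and with array weights. It held too with the 2 groups fitted alone (adjusted p = 0.187) and without both XYF F9 and XYM 9 (0.91, adjusted p = 0.247). Siglec1 and Cd209b differed by -0.07 and 0.20 in XX vs XY mice. Their means were 0.74 and 0.49 RPKM, so that the sum of the list is mostly Marco. The summed RPKM of these 3 genes was 14.6, 16.6, 24, 18.8 and 14.6 in the XXF mice, 5.57, 15.1, 7.88 and 6.05 in the XYF mice, 21.9, 9.16, 12.3, 20.7 and 24.9 in the XXM mice and 9.15, 7.02, 9.68, 8.72 and 9.04 in the XYM mice. XYF F7 reached the XXF range, and XXM 5 lay within the XYM range. Of 6 plasma cell genes, limma and limma-voom called 0 in XX vs XY mice, where 4 had an unadjusted p under 0.05 (22.8% of all genes). There, 2 passed the adjusted p alone (6.93%), both lower in XX, and the median was -0.35. In XXF vs XYF mice 1 of 6 was called lower, with Jchain the most abundant (957 RPKM) and none at 0. Their summed RPKM was 591, 1269, 1322, 546 and 801 in the XXF mice, 1648, 1322, 1642 and 1228 in the XYF mice, 1054, 1042, 792, 1062 and 1069 in the XXM mice and 862, 1317, 1405, 909.7 and 1412 in the XYM mice. XYF mice were at or above the top of the XXF range except F9. Of 6 platelet genes, 1 was called lower in XXF than XYF mice, with Ppbp the most abundant (29.4 RPKM) and none at 0. Their summed RPKM was 72.2, 63.7, 70.1, 77.5 and 76.4 in the XXF mice, 111, 84.7, 67.8 and 113 in the XYF mice, 90, 86.7, 68.3, 71.3 and 53.8 in the XXM mice and 55.8, 72, 74.4, 35.2 and 59.5 in the XYM mice. XYF F8 lay within the XXF range and the other XYF mice above it. The part of NK cell, macrophage, plasma cell and platelet RNA in the XX vs XY differences of the B cell genes was not tested.

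Beside the counts that follow, 7.32% of all genes were called in males vs females in either direction. The share was 2.96% in XXM vs XYM mice, 1.72% in XX vs XY mice and 0.0846% in the interaction. Between males and females, 5 of 6 T cell genes were called lower in males, and 3 of 6 were called lower in XXM than XYM mice, with 1 in the interaction above 0. Cd3g was the most abundant (168 RPKM) and none was at 0. Their summed RPKM was 604, 922, 794, 643 and 788 in the XXF mice, 632, 804, 603 and 296 in the XYF mice, 284, 289, 247, 192 and 185 in the XXM mice and 315, 294, 399, 324 and 180.0 in the XYM mice. All males were below all females other than XYF F9, which was below XYM 12, 15 and 16. All 5 erythroid genes were called lower in males as well, and 1 of 5 higher in XXM than XYM mice, with summed RPKM between 2665 and 5924 in XXF, 3686 and 16250 in XYF, 1715 and 3471 in XXM, and 436.5 and 3149 in XYM mice, Hba-a1 the most abundant (3322 RPKM) and none at 0. Of 5 dendritic cell genes, 2 were called higher in males, with Itgax the most abundant (18.1 RPKM), none at 0 and summed RPKM of 25.9, 18.6, 18.6, 25.5 and 21.1 in the XXF mice, 21.4, 21.4, 35.4 and 35.3 in the XYF mice, 29.1, 32.5, 43, 43.7 and 41.6 in the XXM mice and 39.2, 58.3, 41.7, 42.5 and 31.4 in the XYM mice. Males were above XXF mice without overlap, and XYF F8 and F9 lay within the male range. Of 6 myeloid genes, 1 was called lower in males, with Lyz2 the most abundant (1137 RPKM), none at 0 and summed RPKM of 1353, 852, 979.8, 1568 and 1244 in the XXF mice, 1018, 1751, 736 and 3510.0 in the XYF mice, 911, 1138, 916, 1096 and 1120.0 in the XXM mice and 732, 1110.0, 684, 739 and 3382 in the XYM mice. XYF F9 and XYM 9 were far above all other mice. Neutrophil genes were led by S100a9 (4978 RPKM), none was at 0, and 2 of 5 (Mpo and Elane) were called lower in XX vs XY mice. Their summed RPKM was 3869, 3368, 4536, 4452 and 3782 in the XXF mice, 10910.0, 14670.0, 6752 and 43360.0 in the XYF mice, 5540.0, 4777, 5586, 3872 and 3198 in the XXM mice and 2449, 7333, 3370.0, 2723 and 44110.0 in the XYM mice. All XYF mice were above all XXF mice. RPKM are shares of a library, and the part of these cells in the values of the B cell genes was not tested.

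**Figure D4:**
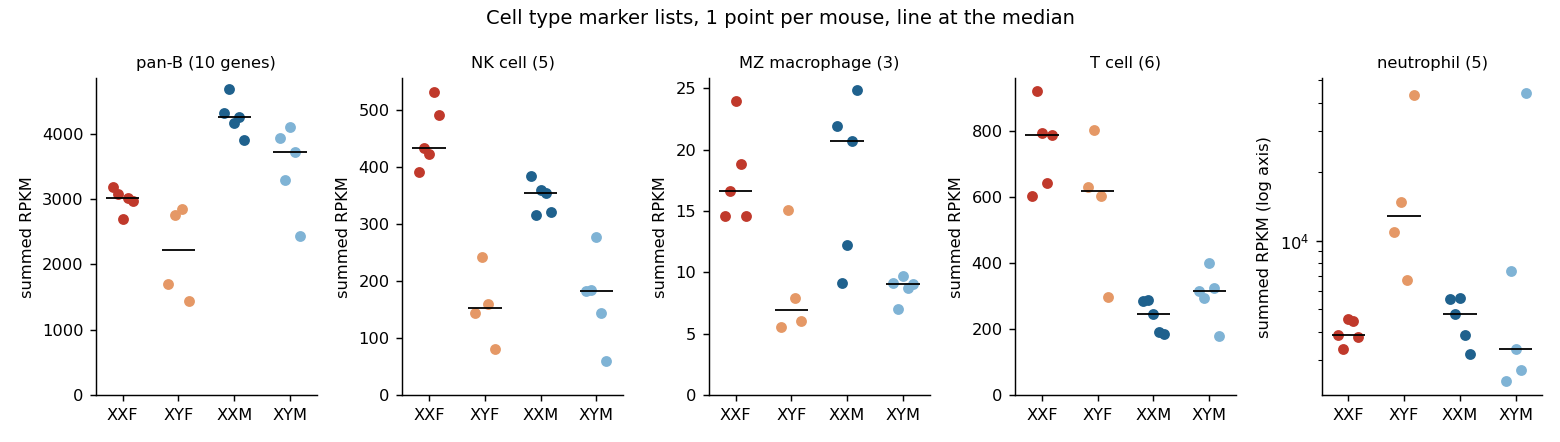
Summed RPKM of the pan-B, NK cell, marginal zone (MZ) macrophage, T cell and neutrophil genes in each mouse by group, with a line at the group median, on a log axis for neutrophils and from 0 for the others. NK cell genes of XX mice lie above those of XY mice of the same gonadal sex, and XYF F9 and XYM 9 stand out in neutrophil genes.

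Further genes of the same programmes were looked at too. Of 5 further marginal zone genes (Mzb1, Myof, Plxnd1, Asb2 and Tm6sf1), limma called 0 in each of the 5 comparisons, with 3 of 5 at an unadjusted p under 0.05 in males vs females (41.7% of all genes), 2 in XXF vs XYF (18.7%), 1 in XX vs XY (22.8%), 1 in the interaction (21.0%) and 0 in XXM vs XYM (27.1%). By limma-voom there was 1 call, in males vs females. Mzb1, an endoplasmic reticulum chaperone of marginal zone B and plasma cells, was the most abundant (202 RPKM) and differed by 0.26 ± 0.16 (SE, adjusted p = 0.355) in XX vs XY mice. Asb2 had the lowest adjusted p, in males vs females (-0.52 ± 0.14, adjusted p = 0.0114). The median XX vs XY difference of the 5 genes was 0.07, beside 0.03 over all genes. Of 5 further follicular and homing genes, 2 were called higher in males vs females, beside 7.32% of all genes in either direction. They were Ighd, the heavy chain of IgD (0.97 ± 0.26, SE, adjusted p = 0.0101, most abundant at 608 RPKM), and Cxcr5, the receptor that draws B cells into follicles (0.69 ± 0.18, adjusted p = 0.00985). In XX vs XY mice limma and limma-voom called 0 of the 5. There, 2 of 5 had an unadjusted p under 0.05 (22.8% of all genes). The adjusted p alone was passed by 1, higher in XX, beside 6.93% of all genes.

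Of 25 Notch pathway genes, 20 passed the filter on low values. The only call by limma among the 5 comparisons was Hes1, a repressor that Notch switches on, higher in XXM than in XYM mice (0.90 ± 0.22, SE, adjusted p = 0.0602). That call was lost without XXM 2 (0.74), 5 (0.83) or 6 (0.92) or XYM 12 (0.89), 13 (0.86) or 16 (0.85), and with the 2 groups fitted alone (0.90, adjusted p = 0.101). Its adjusted p lay between 0.00422 and 0.162 over the alternatives. By limma-voom, 2 of the 20 were called in XXM vs XYM mice (399 of all 14186) and 2 in males vs females (1714). In XXF vs XYF mice and in the interaction limma-voom called 0. In XX vs XY mice limma called 0 of 20, with 8 at an unadjusted p under 0.05 (22.8% of all genes) and 1 called by limma-voom (395 of all 14186). The adjusted p alone was passed by 5 of 20 (6.93% of all genes), all higher in XX. Among them, chosen after their values were seen, were 2 more targets of the pathway, Nrarp (0.41 ± 0.08, SE, adjusted p = 0.0114) and Hes5 (0.53 ± 0.13, adjusted p = 0.0365, at a mean of 1.91 RPKM). Hes5 was called without XYF F7 (0.59, adjusted p = 0.0136), with a pseudocount of 0.1 (0.81) or 0.5 (0.65) and by limma-voom (0.85). Its adjusted p lay between 0.0136 and 0.108 over the alternatives, and so did not pass in all of them. Lfng, a glycosyltransferase that modifies Notch receptors, was the most abundant gene of the list (78.0 RPKM), with an XX vs XY difference of 0.38 ± 0.14 (adjusted p = 0.129). The median XX vs XY difference of the 20 genes was 0.02, beside 0.03 over all genes.

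Of 9 further genes of S1P signalling, S1pr1, the receptor by which lymphocytes leave tissues and the most abundant of the list (109.1 RPKM), rose in XXF over XYF mice and was called (0.77 ± 0.18, SE, adjusted p = 0.0524). That call was lost without XXF F1 (0.72) or F5 (0.76) or XYF F6 (0.78) or F9 (0.58), with the 2 groups fitted alone (0.77, adjusted p = 0.133) and without both XYF F9 and XYM 9 (0.58). Its adjusted p lay between 0.0114 and 0.213 over the alternatives. S1pr2, a receptor that holds B cells at the follicle centre, was called lower in XXM than in XYM mice (-0.84 ± 0.20, adjusted p = 0.0509), though not without XXM 2 (-0.77) or XYM 12 (-0.86), 13 (-0.78) or 16 (-0.84). In XX vs XY mice its difference of -0.59 ± 0.14 (adjusted p = 0.0356) was just past the fold change threshold, and fell short of it, at -0.49 to -0.57, without XXF F1 or F5, XYF F8 or F9, XXM 2 or 8, or XYM 13 or 15. It also fell short after quantile normalization (-0.56). Of the 9 genes, 3 passed the adjusted p alone in XX vs XY mice as higher in XX (S1pr1, S1pr4 and Spns2). Only 1, S1pr2, passed it as lower, beside 6.93% of all genes in either direction. In XXF vs XYF mice S1pr2 was not called (-0.33 ± 0.21, adjusted p = 0.388), and its interaction was 0.51 ± 0.28 (adjusted p = 0.299). In males vs females 1 of the 9 was called higher and 2 lower, beside 7.32% of all genes in either direction. The S1P exporter Spns2 was higher (0.89 ± 0.11, adjusted p = 5.15e-05), and the S1P-producing kinase Sphk1 (-1.16 ± 0.28, adjusted p = 0.00624) and the red cell S1P exporter Mfsd2b (-1.05 ± 0.34, adjusted p = 0.029) lower. Sphk1 and Mfsd2b were highest on average in XYF mice (8.32 and 24.0 RPKM). All 5 erythroid genes were called lower in males too, and the part of red cell RNA in these differences was not tested.

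Of 4 further genes of the Fcrl family, to which Fcrl5 belongs, 3 passed the filter and 2 were called higher in males vs females, beside 7.32% of all genes. They were Fcrl1 (0.60 ± 0.13, SE, adjusted p = 0.00407) and Fcrla (0.66 ± 0.11, adjusted p = 0.000641), which encode Fc receptor-like proteins of B cells, and Fcrla is also 1 of the 10 pan-B genes. The call of Fcrla was lost with array weights (0.58). Fcrl1 was just past the fold change threshold and fell short of it without XXF F3 (0.56), XYF F6 (0.54) or F9 (0.50), XXM 5 (0.58) or XYM 12 (0.57), 15 (0.58) or 16 (0.58). It also did after median ratio rescaling (0.57), with array weights (0.52) and without both XYF F9 and XYM 9 (0.57).

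The genes also varied among themselves within groups. After the mean of each group was subtracted, and as a description over 19 mice that share groups, libraries and the shares of other cells, Fcer2a and Notch2 had a Pearson r of 0.79 (Spearman rho 0.80), and 0.80 without the 2 mice farthest from the median of Notch2. Cd1d1 and Klf2 had an r of 0.77 (rho 0.66), and 0.65 without the 2 mice farthest for Cd1d1. Cr2 and S1pr3 had an r of 0.67 (rho 0.73), and 0.63 without XYF F9 and XYM 9. Cr2 and Cd1d1 had an r of 0.52 (rho 0.51), which was 0.18 without these 2 mice and so rested on them. Cd9 had r of -0.75 (rho -0.79) with Fcer2a, -0.65 (rho -0.71) with Notch2 and -0.60 (rho -0.42) with Cr2, the last -0.35 without XYF F9 and XYM 9. Its r with S1pr3 (-0.49, rho -0.36), Dtx1 (-0.46, rho -0.22) and Fcrl5 (-0.43, rho -0.35) was -0.26, -0.16 and 0 without XYM 9 and XYF F8, and so rested partly on these mice. These 36 pairs do not divide into the marginal zone and the follicular genes, since Fcer2a was as close to Notch2, Cr2 and S1pr3 as these were to each other, and Fcer2a and Klf2 had an r of -0.26 (rho -0.31).

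**Figure D5:**
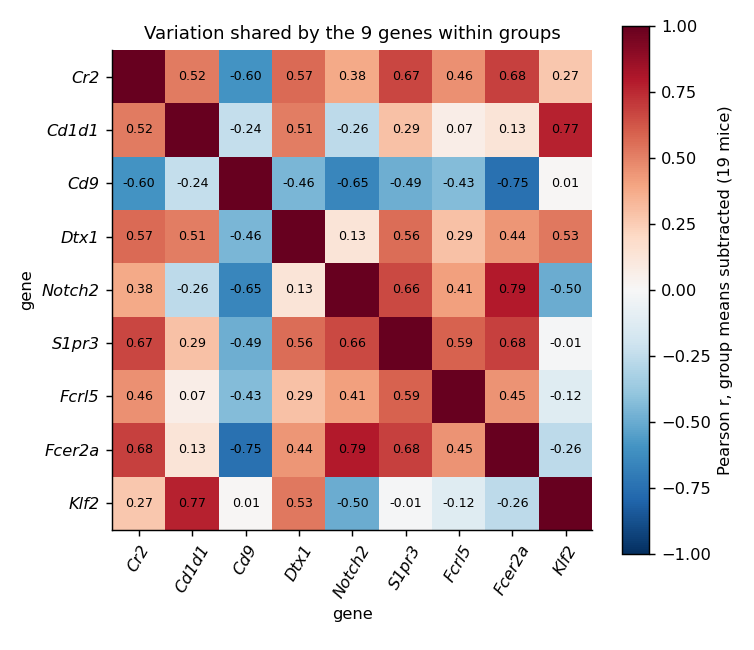
Pearson correlation of log2(RPKM + 1) between each pair of the 9 genes over 19 mice, after subtraction of the mean of each group, from -1 in blue to 1 in red. Fcer2a and Notch2 (0.79) and Cd1d1 and Klf2 (0.77) are the closest pairs, and Cd9 is negative with 7 of the other 8 genes.

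Of the other genes tested, those most like each of the 9 by the same measure over the 19 mice were as follows. St6gal1 (r = 0.91, rho 0.89), Bank1 (0.90, rho 0.86) and Pacsin1 (0.90, rho 0.85) were most like Cr2. Rasal1 (0.90, rho 0.89), Cdh17 (0.88, rho 0.91) and Rab37 (0.88, rho 0.85) were most like S1pr3. Cog8 (0.91, rho 0.89), Csnk1g2 (0.90, rho 0.94) and Zbp1 (0.87, rho 0.81) were most like Dtx1. Ctsw (0.95, rho 0.92), Trbc1 (0.94, rho 0.84) and AW112010 (0.93, rho 0.85) were most like Cd1d1. Sec16a (0.98, rho 0.98), Dnajc13 (0.96, rho 0.93) and Rptor (0.96, rho 0.95) were most like Notch2, and Pxk (0.97, rho 0.97), Dpp4 (0.96, rho 0.96) and Chst3 (0.96, rho 0.98) most like Fcer2a. S100a6 (0.95, rho 0.95), Ramp1 (0.94, rho 0.84) and Prdx5 (0.94, rho 0.84) were most like Cd9. The closest to Fcrl5 were Rars2 (0.83, rho 0.82), Phf11a (0.83, rho 0.82) and Hyal2 (0.82, rho 0.79), lower than for the other 8 genes. Jund (0.95, rho 0.92), Eif3f (0.95, rho 0.94) and Anapc16 (0.93, rho 0.93) were most like Klf2. They were the highest among all 14186 genes tested less the 9, and such maxima come out high by selection.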

How the data were processed

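Values were deposited by the authors as log2(RPKM + 1) with 1e-04 added, from reads they aligned to the mouse genome and counted per gene; versions and the handling of strand were not stated, and methods and sample labels name different library kits. The added value was removed, and whole reads were recovered for 21317 genes (tolerance 0.05 reads). Of 27179 Entrez IDs, 25275 were found in RefSeq. The 14186 genes that reached 0.5 RPKM in 4 or more mice were fitted by group means in limma 3.58.1 (R 4.3.3, trended empirical Bayes), with thresholds as in the report. The fit was tested on simulated reads, drawn independently for each gene and mouse at the same relative spread. That test holds no shifts shared by many genes, such as those of XYF F9 and XYM 9. Tables and figures used matplotlib 3.10.9, scipy 1.17.1, pandas 2.3.3 and numpy 2.4.6 under Python 3.11.15. Of each further list of the B cell programmes, the genes called, the most abundant gene and, without a call, that of lowest adjusted p were named, except 1 gene that is not reported here. The 9 genes and the lists were chosen with earlier results of these data known. Alternatives were other pseudocounts, filters, scalings, thresholds, array weights, limma-voom, the compared groups alone, and each mouse, or XYF F9 with XYM 9, left out.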

Additional observations from a re-analysis of the deposited data

How the results depend on the processing

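The cause of the changes below was not tested, and a fit without a mouse also rests on fewer mice. In brackets after each count of the 9 genes is the count of all genes called in that fit. In XXF vs XYF mice 4 of the 9 were called (196), 2 with only these groups fitted (88) and 3 at an adjusted p under 0.05 (103). There were 3 after median ratio rescaling (179), 3 after quantile normalization (194) and 3 with array weights (260). Without XYF F9 and XYM 9 there were 3 (127), and 2 to 4 without each mouse in turn (56 to 850). In XXM vs XYM mice 0 were called (420), 2 with a pseudocount of 0.1 (543), 2 with 0.5 (521) and 2 with limma-voom (399). There was 1 with quantile normalization (435), 1 with array weights (1027) and 1 without XYF F9 and XYM 9 (876). Without the fold change threshold there were 3 (1115), and 0 to 3 without each mouse in turn (51 to 1213). In XX vs XY mice 4 were called (244), 2 after median ratio rescaling (239), 2 after quantile normalization (235) and 1 with array weights (332). Without XYF F9 and XYM 9 there was 1 (185), and 1 to 4 without each mouse in turn (148 to 518). In males vs females 2 were called (1039), 3 with a pseudocount of 0.1 (1700) or 0.5 (1286), 3 with array weights (1104) and 3 with limma-voom (1714). Without the fold change threshold there were 4 (5468), and 2 to 3 without each mouse in turn (837 to 1253). In the interaction 0 were called (12), 1 with array weights (1910), and 0 to 3 without each mouse in turn (0 to 1694). Calls among all 14186 genes moved too: in the interaction they were 12, 1910 with array weights, 782 without XYF F9 and XYM 9, and 0 to 1694 without each mouse in turn, and in XXM vs XYM mice 420, 1027 with array weights, 876 without XYF F9 and XYM 9, 121 with only these groups fitted, and 51 to 1213 without each mouse in turn. They were 196 in XXF vs XYF mice, 88 with only these groups fitted, and 56 to 850 without each mouse in turn. In XX vs XY mice they were 244, 413 with a pseudocount of 0.1, 395 with limma-voom, and 148 to 518 without each mouse in turn. In males vs females they were 1039, 1700 with a pseudocount of 0.1, 1714 with limma-voom, and 837 to 1253 without each mouse in turn.

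Differences near 0 changed sign. The interaction of Cd1d1 was -0.0349 after median ratio rescaling, -0.0511 with array weights, -0.0157 without XYF F9 and XYM 9, and -0.1046 to 0.1421 without each mouse in turn. Cd9 in XXF vs XYF mice was 0.0145 with array weights, 0.0017 without XYF F9 and XYM 9, and -0.3522 to 0.0017 without each mouse in turn. Fcrl5 was -0.2883 to 0.0548 in XXM vs XYM mice and -0.3128 to 0.0621 in the interaction without each mouse in turn, the latter 0.0835 without XYF F9 and XYM 9. Fcer2a in XX vs XY mice was -0.1481 to 0.0246 without each mouse in turn, and Klf2 in males vs females 0.0588 after quantile normalization.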
